A study of Mus musculus with 6 samples.

Results

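The genes described here are 37 lipogenesis and lipid droplet genes, a fixed list chosen by name, of the 35683 genes measured by RNAseq in liver tumors. For each gene, the TPM values of its transcripts were summed, where TPM is a share of all transcripts scaled for length to a fixed sum. Genes averaging 1 TPM or more over the tumors were counted as expressed, and these were 36 of the 37 genes and 12518 of all genes. The exception was *Cidea*.

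The data were 6 tumors excised from the livers of 2 CMRtdT mice, 3 from mouse 2 and 3 from mouse 1. Both mice were males on a C57BL/6 background that carried 1 *Ctnnb1* allele whose exon 3 is removed by Cre, which leaves a constitutively active β-catenin, the MUP-uPA transgene, which injures hepatocytes, and the tdTomato reporter. Both ate a high-fat diet once 6 weeks old, received AAV8-TBG-Cre, a virus that drives Cre from a hepatocyte promoter, by tail vein at 8 weeks, and were sampled 6.5 months after that injection, with food withdrawn for a few hours beforehand. The 6 tumors thus formed 1 condition without non-tumor liver or a control genotype, so the levels are described and the only groups that could be compared were the tumors of each mouse. Tumors of 1 mouse share that animal, and any p-value between the mice measures the spread between tumors of 1 animal.

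In the liver, fatty acids are built from citrate and acetate by *Acly*, *Acss2*, the acetyl-CoA carboxylases and fatty acid synthase, then lengthened by elongases and desaturated by Scd and Fads enzymes. *Srebf1*, the transcription factor SREBP1, responds to insulin, and *Mlxipl*, the factor ChREBP, responds to sugars, and together they drive most of these genes. Acyl chains are joined to glycerol by *Gpam*, the Agpat, Lpin and Dgat enzymes, and the triglyceride is stored in droplets coated by perilipins, enlarged by CIDE proteins and emptied by lipases. Hepatocytes that fill with such droplets are the hallmark of steatosis.

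Before the results, a library that stood apart has to be named. In tumor 1 of mouse 1 the summed level of 9 hepatocyte marker genes was 1618 TPM, against 30578 to 55752 TPM in the other 5 tumors, and all 9 were lowest there, with *Apoa2*, *Alb* and *Apoa1* the most abundant of them. Markers of other cells did not move together. Macrophage markers summed to 94.6 TPM in that tumor, against 169 to 607 TPM in the other 5, endothelial markers to 11.1 against 28.7 to 68.5 TPM, and neutrophil markers to 1.42 against 9.29 to 25.8 TPM. T and NK cell markers summed to 0.432 TPM there, against 2.47 to 7.37 TPM. Stellate cell and fibroblast markers summed to 77.0 against 17.9 to 71.3 TPM, of which *Acta2*, smooth muscle actin, gave 50.05 TPM (1.29 to 4.56 TPM in the other 5), and the 6 others summed to 26.9 TPM, within their 16.6 to 67.0 TPM elsewhere. Cholangiocyte markers summed to 11.2 against 0.441 to 5.84 TPM. The 7 adipocyte markers summed to 20.6 against 29.4 to 59.8 TPM, nearly all from *Fabp4*, and *Lep* and *Retn* had a count of 0 in every tumor, which allows up to 3 counts in each. *Plin1* and *Adipoq*, the perilipin and the adipokine that define fat cells and were looked up after their values were seen, did not exceed 0.157 and 0.205 TPM in any tumor. Mitochondrial genes took 6.85% of the counts in tumor 1 of mouse 1, against 8.27% to 18.4% in the other 5 tumors. The part of these differences in the results was not tested, and in bulk tumors fewer hepatocytes and less RNA per hepatocyte cannot be told apart. Tumors 2 and 3 of mouse 1 were close to each other in these genes, with a median difference of 0.08 and a largest one of 0.26 on the log2 TPM scale over the 36 expressed members, against medians of 0.25 to 0.68 between tumors of mouse 2. Over 13303 genes their counts differed by 7.47 times the variance that sampling alone gives, against 52.6 to 171 times for the other pairs among the 5. The labels name them as separate tumors and they were kept as separate samples, but 2 libraries from 1 tumor could also exceed sampling noise, and this was not tested.

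The promoters of the list show which letters these genes hold upstream. Promoters of 250 bases before to 50 after the transcription start were found for 31 of the 37 genes among RefSeq promoters of GRCm38.p6, in 41 windows. The sterol response element, searched as TCACNCCAC on both strands, was in 1 of the 41 windows (2.44%), an internal start of *Mlxipl*, against 1.24% of all 32851 promoters. The E-box CACGTG, the letters bound by ChREBP and related factors, was in 6 windows (14.6%, against 7.15% of all), those of *Elovl5*, *Lipe*, *Lpin2*, *Mgll*, *Mlxipl* and *Plin2*. The NF-Y box CCAAT was in 18 windows (43.9%, against 37.4%) and the GC box GGGCGG in 23 (56.1%, against 35.7%). CTTTGAT, the TCF/LEF letters of β-catenin targets, was in 0 windows, against 3.73% of all promoters. These are descriptions of letters in a short window and say nothing of binding. The following 4 stretches run over 150 bases before to 10 after the start, with every match to any of the 5 motifs in capitals. *Mlxipl* is shown because it holds the sterol element, 136 bases before that start. *Plin2*, *Fasn* and *Acly*, chosen after their values were seen, are shown as the leading droplet coat gene, the central synthase and the gene that was high where most of the list was low.
*Mlxipl*, chr5:135106741-135106900, plus strand: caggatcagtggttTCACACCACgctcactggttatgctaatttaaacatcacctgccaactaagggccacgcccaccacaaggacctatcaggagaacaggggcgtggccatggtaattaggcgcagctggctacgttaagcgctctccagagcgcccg
*Plin2*, chr4:86670050-86670209, minus strand: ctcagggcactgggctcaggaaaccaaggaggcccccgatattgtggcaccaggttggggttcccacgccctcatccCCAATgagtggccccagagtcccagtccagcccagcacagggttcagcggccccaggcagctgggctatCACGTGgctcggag
*Fasn*, chr11:120824538-120824697, minus strand: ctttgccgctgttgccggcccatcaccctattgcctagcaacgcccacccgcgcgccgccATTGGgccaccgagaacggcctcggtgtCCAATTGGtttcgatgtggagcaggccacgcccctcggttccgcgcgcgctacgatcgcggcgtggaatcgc
*Acly*, chr11:100527991-100528150, minus strand: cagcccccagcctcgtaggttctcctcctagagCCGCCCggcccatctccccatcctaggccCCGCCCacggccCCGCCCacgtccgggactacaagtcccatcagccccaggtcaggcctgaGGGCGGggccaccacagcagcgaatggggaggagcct
The *Fasn* stretch holds 3 NF-Y boxes, of which the pair at 62 and 59 bases before the start overlaps as an inverted repeat. The *Plin2* stretch holds an E-box 4 bases before the start and an NF-Y box 73 bases before it. The *Acly* stretch holds 4 GC boxes and no other searched motif.

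Across the 6 tumors the list held from 4334 to 4921 TPM in 5 tumors, or 0.433% to 0.492% of all transcripts, and 1179 TPM (0.118%) in tumor 1 of mouse 1. *Scd1*, the main stearoyl-CoA desaturase of liver, led with 852 ± 539.8 TPM (mean ± SD, n = 6 tumors) and ranked 165 among all genes. *Plin2*, the droplet coat protein of steatotic hepatocytes, followed with 544 ± 285 TPM, then *Fads2* with 330.3 ± 166 TPM. At the low end stood *Plin4* (6.13 ± 3.40 TPM), *Lipe* (5.54 ± 1.86 TPM), *Pnpla3* (2.70 ± 2.28 TPM) and *Cidea* (0.766 ± 1.68 TPM). Every SD includes tumor 1 of mouse 1.

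**Figure D1:**
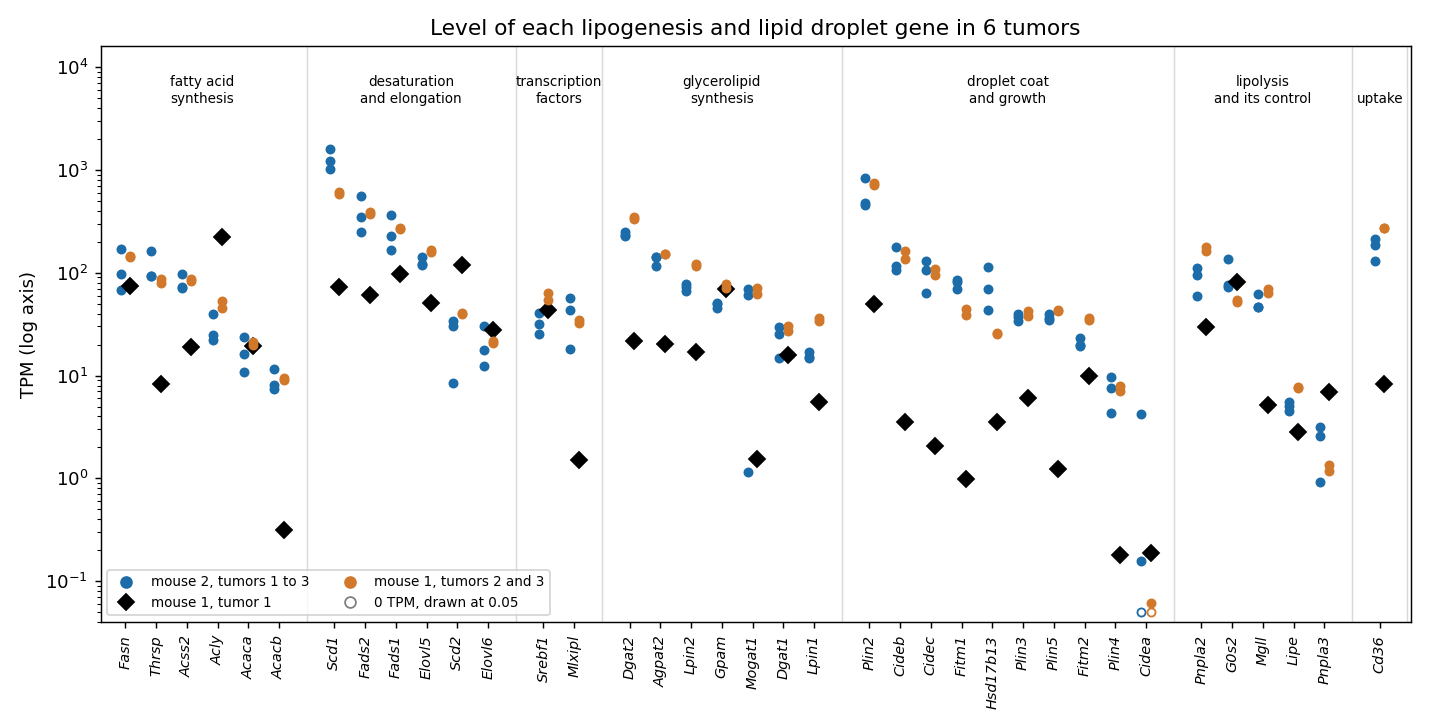
Level of each of the 37 genes in 6 tumors, grouped by role, on a log TPM axis. Blue circles are the 3 tumors of mouse 2, black diamonds tumor 1 of mouse 1 and orange circles tumors 2 and 3 of mouse 1, and open symbols are values of 0 drawn at 0.05. Most black diamonds lie far below the circles, for *Fitm1* at 0.985 TPM under 39.0 to 85.0 TPM, while those of *Acly* and *Scd2* lie above them.

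Tumor 1 of mouse 1 lay far from the other 5 tumors in these genes, with a median difference of 2.25 to 2.86 on the log2 TPM scale from each of them, against 0.08 to 0.68 between pairs of the other 5. By TPM, 22 of the 36 expressed genes were at least 2-fold below the lowest of the other 5 tumors, against 14.4% of all expressed genes, and 3 (*Acly*, *Scd2* and *Pnpla3*) were at least 2-fold above the highest, against 39.3% of all expressed genes. At 4-fold the counts were 17 and 1 (*Acly*), against 1259 and 2386 of all 12518 expressed genes. By Dixon's ratio on log2(TPM + 1), a test for a single value far from the rest, 21 of the 37 genes had a tumor that stood apart, against 38.8% of all expressed genes. The median log2 ratio of tumor 1 of mouse 1 to the mean of the other 5 was -2.53 over the 36 genes and 0.98 over all 12518 genes. On counts scaled for library size and composition by edgeR's TMM factors (TMM-scaled CPM), the medians were -3.54 over the 36 genes and 0.06 over all genes. On that scale, added after the data were seen, 28 of the 36 genes were at least 2-fold below and 0 above. Of all 12518 expressed genes, 2918 were below and 2769 above on that scale. *Acly*, *Scd2* and *Pnpla3* were still highest in this tumor. These folds compare 1 library with 5, with no replicate check, and apart from Dixon's ratio no test was made.

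By role and by TPM, the droplet coat and growth genes held the most low members, 8 of the 9 expressed. Next came 4 of 7 glycerolipid synthesis genes, 3 of 6 synthesis genes and 3 of 6 desaturases and elongases. Low too were 2 of 5 lipolysis genes, 1 of the 2 transcription factors and *Cd36*. By TMM-scaled counts the numbers were 9 droplet, 6 glycerolipid, 4 synthesis, 4 desaturase and elongase and 3 lipolysis genes, with *Cd36* and 1 transcription factor as before. Summed over each role, droplet genes had 77.3 TPM in tumor 1 of mouse 1, against 941 to 1309.9 TPM in the other 5 tumors, whereas fatty acid synthesis genes had 345 TPM, within the 303 to 480.1 TPM of the other 5. *Acly* gave 223 of those 345 TPM, and the 5 synthesis genes without it summed to 122 TPM, against 278 to 440.2 TPM elsewhere.

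**Figure D2:**
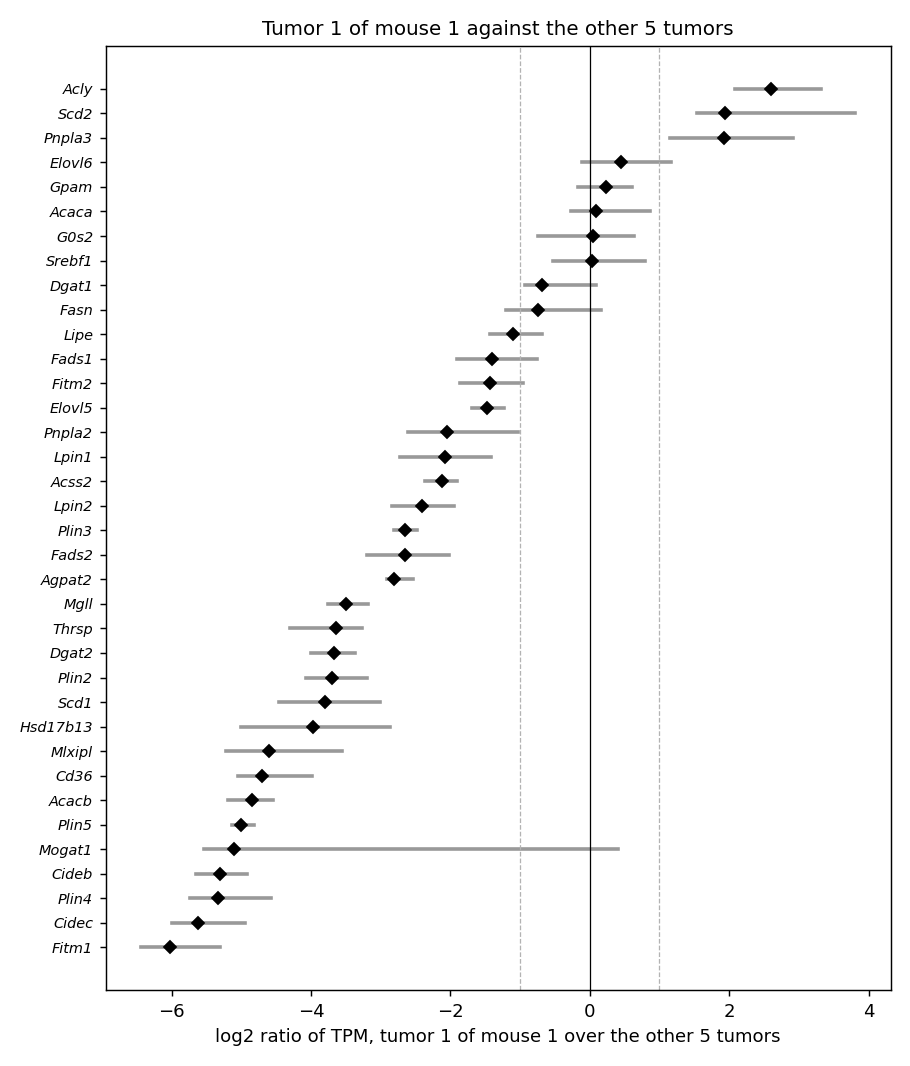
Tumor 1 of mouse 1 against the other 5 tumors for the 36 expressed genes. Diamonds give the log2 ratio of its TPM to the mean of the 5, grey bars run over the ratios to each of the 5, and dashed lines mark 2-fold. 22 bars lie wholly left of the lower dashed line and 3 wholly right of the upper one, against a median log2 ratio of 0.98 over all 12518 genes.

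Among the synthesis genes the tumors differed in which enzyme was abundant. *Acly*, which cleaves citrate to acetyl-CoA, had 223 TPM in tumor 1 of mouse 1, against 22.3, 39.9 and 24.6 TPM in tumors 1 to 3 of mouse 2 and 45.0 and 52.7 TPM in tumors 2 and 3 of mouse 1. *Acss2*, which makes the same product from acetate, went the other way, with 19.02 TPM in tumor 1 of mouse 1, against 71.1 to 98.1 TPM in the other 5. The ratio of *Acly* to *Acss2* was therefore 11.7 in that tumor, against 0.251 to 0.614 elsewhere. Part of the high *Acly* value came from a transcript of 772 bases without a defined coding sequence, which held 38.5% of the gene's TPM there and 0 to 22.8% elsewhere. With protein-coding transcripts alone *Acly* was still at least 2-fold above each other tumor. By TMM-scaled counts it was highest there by less than 2-fold, at 274 CPM against 105 to 165 CPM.

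*Acaca*, the cytosolic acetyl-CoA carboxylase, had 19.5 TPM in tumor 1 of mouse 1, inside the 10.7 to 23.5 TPM of the other 5, but was lowest there by TMM-scaled counts (a log2 ratio of -1.31 to the mean of the other 5, which ran from 97.1 to 180 CPM). *Acacb*, the mitochondrial form whose product restrains fatty acid oxidation, had 0.315 TPM in this tumor, against 7.35 to 11.5 TPM elsewhere, 28.9-fold below the mean of the other 5. *Acaca* thus held 98.4% of the summed carboxylase TPM in that tumor, against 57.1% to 69.9% elsewhere. Outside that tumor, a retained-intron transcript of 6680 bases took 35.2% to 48.9% of the *Acacb* level.

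*Fasn*, the multidomain synthase, had 97.1, 171 and 67.2 TPM in tumors 1 to 3 of mouse 2, against 74.7, 143 and 145 TPM in tumors 1 to 3 of mouse 1. The tumors of both mice overlapped, and tumor 1 of mouse 1 was not the lowest by TPM, although it was by TMM-scaled counts (198 CPM, against 443 to 808 CPM elsewhere). A retained-intron transcript of 762 bases held 30.5% to 39.7% of the *Fasn* TPM in every tumor, and another of 976 bases up to 17.2%. Protein-coding transcripts alone gave a mean of 64.0 TPM, against 116 TPM in all. *Thrsp*, the lipogenic nuclear protein Spot14, had 93.6, 163 and 93.9 TPM in mouse 2, against 8.30, 86.6 and 79.6 TPM in mouse 1.

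The stearoyl-CoA desaturases also changed places. *Scd1* had 1225, 1023 and 1594 TPM in tumors 1 to 3 of mouse 2, against 72.6, 587 and 608 TPM in tumors 1 to 3 of mouse 1. *Scd2*, a paralog prominent in brain and fetal tissue that lies beside it on chromosome 19 (44293676 to 44306864, with *Scd1* at 44394450 to 44407709, GRCm38), had 34.1, 30.4 and 8.42 TPM in mouse 2, against 117, 40.1 and 40.4 TPM in mouse 1. *Scd2* made up 61.8% of the summed *Scd1* and *Scd2* level in tumor 1 of mouse 1, against 0.526% to 6.39% elsewhere. The excess of *Scd2* in that tumor was 2.91-fold over the next highest by TPM, and by TMM-scaled counts 328 against at most 218 CPM. The paralogs are alike in sequence, so how reads were shared between them is a source of uncertainty for the minor gene.

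*Fads1* and *Fads2*, the desaturases of polyunsaturated fatty acids, kept a steadier ratio. *Fads2* had 351, 247 and 561 TPM in mouse 2, against 61.1, 392 and 369 TPM in mouse 1, and *Fads1* 228, 165 and 363 TPM, against 97.3, 269.6 and 267 TPM. *Fads1* was 0.647 to 0.724 of *Fads2* in 5 tumors and 1.59 in tumor 1 of mouse 1. *Elovl5*, which extends polyunsaturated chains, had 51.0 TPM in tumor 1 of mouse 1, against 119 to 164 TPM in the other 5. *Elovl6*, which extends palmitate, had 27.8 TPM there, within the 12.4 to 30.0 TPM of the other 5, but was lowest there by TMM-scaled counts (80.0, against 87.5 to 160.0 CPM).

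**Figure D3:**
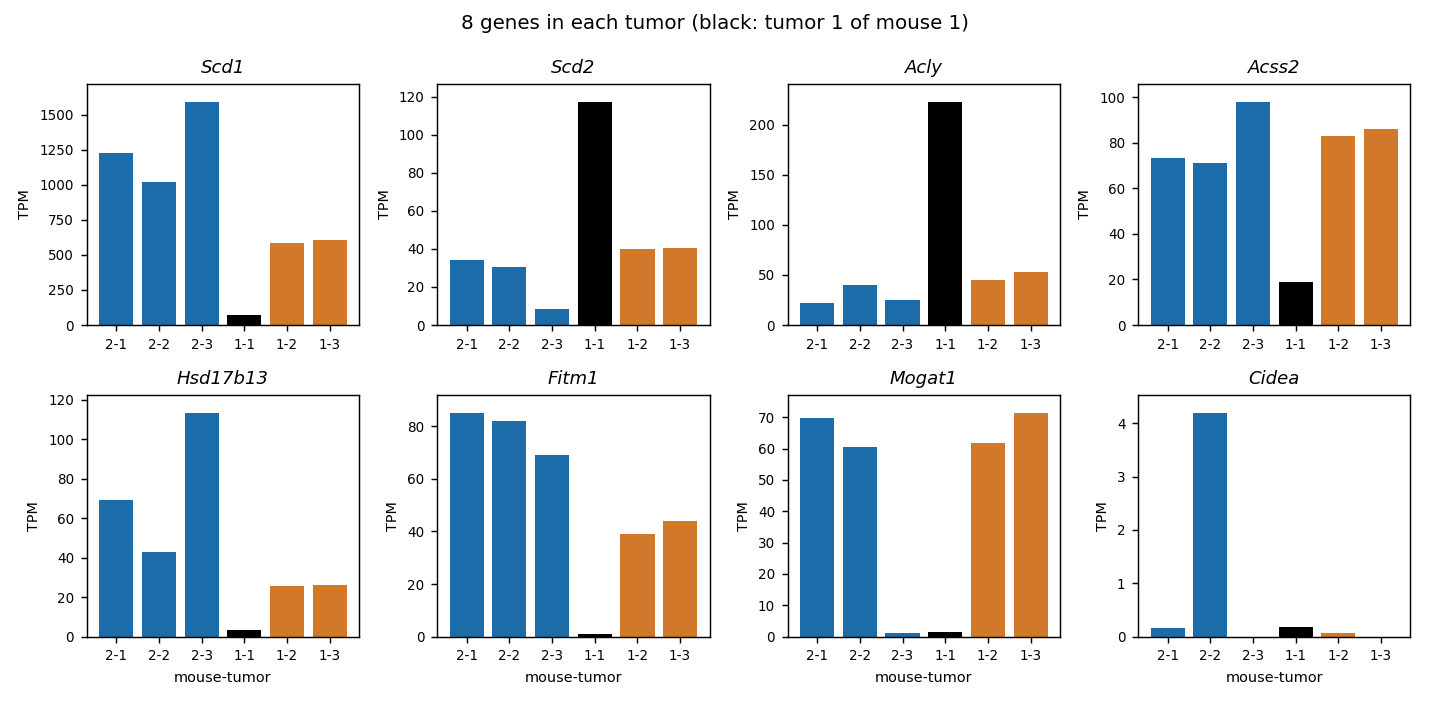
TPM of 8 genes in each tumor, labelled mouse-tumor, with mouse 2 in blue, tumor 1 of mouse 1 in black and tumors 2 and 3 of mouse 1 in orange, on linear axes from 0. *Scd2* and *Acly* peak in tumor 1 of mouse 1 (117 and 223 TPM) where *Scd1* and *Acss2* are lowest, *Mogat1* is near 0 in that tumor and in tumor 3 of mouse 2, and *Cidea* reaches 4.19 TPM in tumor 2 of mouse 2 alone.

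The transcription factors differed in the same tumor. *Mlxipl* had 56.6, 43.5 and 17.9 TPM in tumors 1 to 3 of mouse 2, against 1.52, 34.8 and 32.7 TPM in tumors 1 to 3 of mouse 1. *Srebf1* had 31.7, 25.3 and 40.4 TPM in mouse 2, against 43.7, 54.3 and 62.8 TPM in mouse 1, so that tumor 1 of mouse 1 stood within the range. By TMM-scaled counts *Srebf1* was lowest there, at 73.5 CPM against 99.98 to 205 CPM. A transcript of 4299 bases held 47.5% to 63.6% of the *Srebf1* TPM, and a transcript of 3622 bases held 42.3% to 64.9% of that of *Mlxipl*.

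Among the 11 expressed of 12 genes of SREBP processing and LXR signalling, fixed as a list beside these, 5 were at least 2-fold below the other tumors in tumor 1 of mouse 1 and 1 above. *Insig2*, which holds the SREBP complex in the endoplasmic reticulum, had 34.7 TPM in this tumor, against 104 to 212 TPM elsewhere, and *Insig1* 45.0 against 99.2 to 211 TPM. Of 7 genes that supply NADPH and citrate, 5 were below and 1 above, and *Slc25a1*, the citrate carrier, had 26.4 against 148 to 267 TPM. These shares have to be read against the 14.4% and 39.3% of all expressed genes given above.

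Of the 7 glycerolipid synthesis genes, 4 (*Agpat2*, *Dgat2*, *Lpin1* and *Lpin2*) had low values in tumor 1 of mouse 1 by TPM. By TMM-scaled counts 6 were at least 2-fold below the other tumors there. *Dgat2*, which makes triglyceride from newly formed fatty acids, had 233, 248 and 225 TPM in tumors 1 to 3 of mouse 2, against 21.8, 331 and 349 TPM in tumors 1 to 3 of mouse 1. *Dgat1*, its structurally unrelated counterpart, had 29.8, 25.1 and 14.8 TPM, against 15.8, 27.0 and 30.1 TPM. *Dgat1* thus made up 42.1% of their summed TPM in tumor 1 of mouse 1, against 6.17% to 11.3% elsewhere. A retained-intron transcript of 885 bases held 34.9% of the *Dgat1* TPM in that tumor. With protein-coding transcripts alone *Dgat1* was lowest there, at 8.30 TPM against 13.1 to 24.6 TPM.

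*Agpat2*, the second acyltransferase of the pathway, had 20.2 TPM in tumor 1 of mouse 1, against 117 to 152 TPM in the other 5. *Lpin1*, a phosphatidate phosphatase that also acts as a coactivator, had 15.1, 16.8 and 14.7 TPM in mouse 2, against 5.54, 36.4 and 34.3 TPM in mouse 1, and *Lpin2*, the more abundant family member, 76.8, 66.3 and 73.2 TPM, against 17.1, 117 and 122 TPM. Both lipins were thus higher in tumors 2 and 3 of mouse 1 than in any tumor of mouse 2. *Gpam*, the mitochondrial enzyme of the first step, had 68.8 TPM in tumor 1 of mouse 1, within the 45.5 to 77.1 TPM of the other 5, as *Dgat1* was within its range, though both were lowest by TMM-scaled counts (172 CPM for *Gpam*, against 224 to 279 CPM).

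*Mogat1*, a monoacylglycerol acyltransferase induced in steatotic mouse liver, had an on or off pattern. Its level was 69.9 and 60.7 TPM in tumors 1 and 2 of mouse 2, against 61.9 and 71.3 TPM in tumors 2 and 3 of mouse 1. In tumor 3 of mouse 2 it had 1.16 TPM and in tumor 1 of mouse 1 1.54 TPM, each from 21 estimated counts. The lone transcript in tumor 3 of mouse 2 spanned 1228 bases and held at most 5.69% of the gene's TPM in the other tumors, where a transcript of 1178 bases led with 63.3% to 79.0%.

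Of 10 other glycerolipid genes fixed as a list, 4 were at least 2-fold below the other tumors in tumor 1 of mouse 1 and 0 above. Over all expressed genes, 14.4% were below and 39.3% above. The most abundant gene of the list, *Agpat3*, had 53.1 TPM in this tumor, against 131 to 242 TPM elsewhere.

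Droplet coat and growth genes had the lowest ratios in the list. *Plin2* had 477, 832 and 455 TPM in tumors 1 to 3 of mouse 2, against 49.5, 715 and 738 TPM in tumors 1 to 3 of mouse 1. *Plin5*, the perilipin that links droplets to mitochondria, had 34.6, 36.1 and 39.9 TPM, against 1.23, 43.4 and 42.6 TPM. In the 5 tumors other than tumor 1 of mouse 1, *Plin5* varied by 1.25-fold in TPM from lowest to highest. So did *Plin3*, the ubiquitous perilipin (34.2 to 42.8 TPM there and 6.11 TPM in tumor 1 of mouse 1). By TMM-scaled counts the spread over those 5 was wider, 62.6 to 99.2 CPM for *Plin5* and 95.0 to 170 CPM for *Plin3*.

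*Plin4*, which coats nascent droplets, had 0.181 TPM in tumor 1 of mouse 1, against 4.31 to 9.68 TPM in the other 5 tumors. It lies beside *Plin5* on chromosome 17 (56100587 to 56109948, with *Plin5* at 56111597 to 56117606, GRCm38). *Cideb*, the CIDE protein of hepatocytes that also serves lipoprotein loading, had 107, 115 and 178 TPM in mouse 2, against 3.54, 136 and 163 TPM in mouse 1. *Cidec*, which fuses droplets and is induced in fatty liver, had 105, 131 and 63.6 TPM, against 2.06, 96.0 and 109.6 TPM. Outside tumor 1 of mouse 1, tumor 3 of mouse 2 was the lowest by TPM. By TMM-scaled counts tumor 2 of mouse 1 was the lowest of those, at 95.0 CPM, against 109 CPM in tumor 3 of mouse 2. The third CIDE gene, *Cidea*, better known from brown fat, had 4.19 TPM (72 counts) in tumor 2 of mouse 2 and 0.158 TPM in tumor 1 of that mouse, against at most 0.188 TPM in mouse 1, with a count of 0 in tumor 3 of each mouse.

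*Fitm1* and *Fitm2* encode endoplasmic reticulum proteins that help fat partition into droplets. *Fitm1*, best known from muscle, had 85.0, 81.9 and 69.2 TPM in tumors 1 to 3 of mouse 2, against 0.985, 39.0 and 43.9 TPM in tumors 1 to 3 of mouse 1, so that the mice did not overlap. The value in tumor 1 of mouse 1 rested on 13 estimated counts and was 64.8-fold below the mean of the other 5, the lowest ratio of the list. *Fitm2*, the form of most tissues, had 19.3, 19.6 and 23.4 TPM in mouse 2, against 9.90, 36.0 and 34.8 TPM in mouse 1. The *Fitm1* to *Fitm2* ratio was 2.95 to 4.40 in mouse 2, against 0.0995 in tumor 1 and 1.09 and 1.26 in tumors 2 and 3 of mouse 1. *Hsd17b13*, a hepatocyte droplet protein linked to fatty liver disease in humans, had 69.3, 42.9 and 113 TPM in mouse 2, against 3.53, 25.6 and 25.9 TPM in mouse 1, again without overlap. This was not particular to these genes. By TPM, *Scd1* and *Thrsp* were also higher in mouse 2 without overlap, and *Acly*, *Gpam*, *Scd2* and *Srebf1* lower without overlap. By TMM-scaled counts *Acly*, *Gpam*, *Scd2* and *Srebf1* overlapped between the mice. On that scale *Fitm1*, *Hsd17b13*, *Scd1* and *Thrsp* stayed apart, and further members separated, *G0s2* and *Mgll* among them. The share of all genes without overlap was not counted, so these separations are not a result about the list.

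Of the 15 expressed among 16 other droplet, lipolysis and secretion genes fixed as a list, 10 were at least 2-fold below the other tumors in tumor 1 of mouse 1 and 1 above. The shares of all expressed genes were 14.4% and 39.3%. The carboxylesterase *Ces3a* had 44.0 TPM in this tumor, against 666 to 1767 TPM elsewhere, and *Hsd17b11*, a relative of *Hsd17b13* on droplets, had 41.9 against 178 to 591 TPM.

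Genes of lipolysis were divided. *Pnpla2*, the triglyceride lipase ATGL, had 111, 95.0 and 59.9 TPM in tumors 1 to 3 of mouse 2, against 29.3, 163 and 178 TPM in tumors 1 to 3 of mouse 1. *G0s2*, which inhibits that lipase, had 76.5, 72.6 and 136 TPM, against 81.0, 51.9 and 54.7 TPM. The *Pnpla2* to *G0s2* ratio was 1.46, 1.31 and 0.440 in mouse 2 and 0.362, 3.14 and 3.26 in mouse 1. Over all transcripts, RNA of the inhibitor thus exceeded that of the lipase in tumor 3 of mouse 2 and tumor 1 of mouse 1. By TMM-scaled counts, however, *G0s2* in tumor 1 of mouse 1 (29.7 CPM) was level with tumors 2 and 3 of that mouse (29.8 and 31.0). A transcript of 2048 bases annotated to nonsense-mediated decay held 49.3% to 54.5% of the *Pnpla2* level in every tumor, and the ratio by TPM includes it. Protein-coding transcripts held 39.8% to 49.8% of the *Pnpla2* TPM. With those alone, *G0s2* was also above *Pnpla2* in tumors 1 and 2 of mouse 2.

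*Mgll*, which cleaves monoacylglycerol, had 46.3, 62.5 and 46.7 TPM in mouse 2, against 5.12, 63.2 and 68.9 TPM in mouse 1. *Lipe*, the hormone-sensitive lipase of fat cells, was low throughout, with 2.85 TPM in tumor 1 of mouse 1, against 4.57 to 7.71 TPM elsewhere. *Pnpla3*, whose human ortholog carries a common fatty liver allele, had 6.99 TPM (129 counts) in tumor 1 of mouse 1, against 3.16, 2.58 and 0.928 TPM in mouse 2 and 1.36 and 1.19 TPM in tumors 2 and 3 of mouse 1. *Cd36*, the fatty acid translocase, had 185, 213 and 130.5 TPM in mouse 2, against 8.25, 269 and 272 TPM in mouse 1, 25.9-fold lower in tumor 1 of mouse 1 than the mean of the other 5.

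Of 10 other genes of fatty acid uptake and binding, 4 were at least 2-fold below the other tumors in tumor 1 of mouse 1 and 2 above. Among all expressed genes 14.4% were below and 39.3% above. *Fabp1*, the abundant liver fatty acid binding protein, had 173 TPM in this tumor, against 5448 to 6978 TPM elsewhere.

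Among the 5 remaining tumors, tumor 3 of mouse 2 held many extremes, over all genes as in the list, and which kind depended on the scaling. By TPM it was the highest of the 5 for 7 members, *Scd1*, *Fads1*, *Fads2*, *Acss2*, *Cideb*, *G0s2* and *Hsd17b13* (8.62% of 11324 expressed genes were highest in this tumor). It was the lowest by TPM for 16 of the 36 members, a smaller share than the 55% of expressed genes that were lowest there. On TMM-scaled counts, a setting added after the data were seen, it was the highest for 16 members, the 7 above among them, against 32.4% of the same genes, and the lowest for 8, against 28.7%. Those 8 (*Acaca*, *Cd36*, *Dgat1*, *Fasn*, *Mlxipl*, *Mogat1*, *Pnpla2* and *Scd2*) were lowest on both scales, whereas *Dgat2* and *Gpam* were lowest of the 5 by TPM and highest by TMM-scaled counts. Mitochondrial genes took 15.99% of its counts, between the other tumors of mouse 2 (18.4% and 12.9%), and their part was not tested.

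The tumors of mouse 2 were compared with those of mouse 1 by edgeR's quasi-likelihood test on counts. With all 6 tumors, 0 of 36 tested members and 0% of 13268 genes passed an adjusted p of 0.05. At an unadjusted p under 0.05 there were 2 members, *G0s2* and *Hsd17b13*, and 10.9% of all genes. DESeq2 called 202 genes and limma-voom 0, neither of them a member. With tumor 1 of mouse 1 left out, 1 of 36 members rose in mouse 2 and 0 fell, against 0.419% of 13374 genes called higher and 0.837% called lower. That member was *Fitm1*, on chromosome 14 from 55575674 to 55576952, with a log2 fold change of 1.51 (SE 0.148) and an edgeR adjusted p of 0.022.

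**Figure D4:**
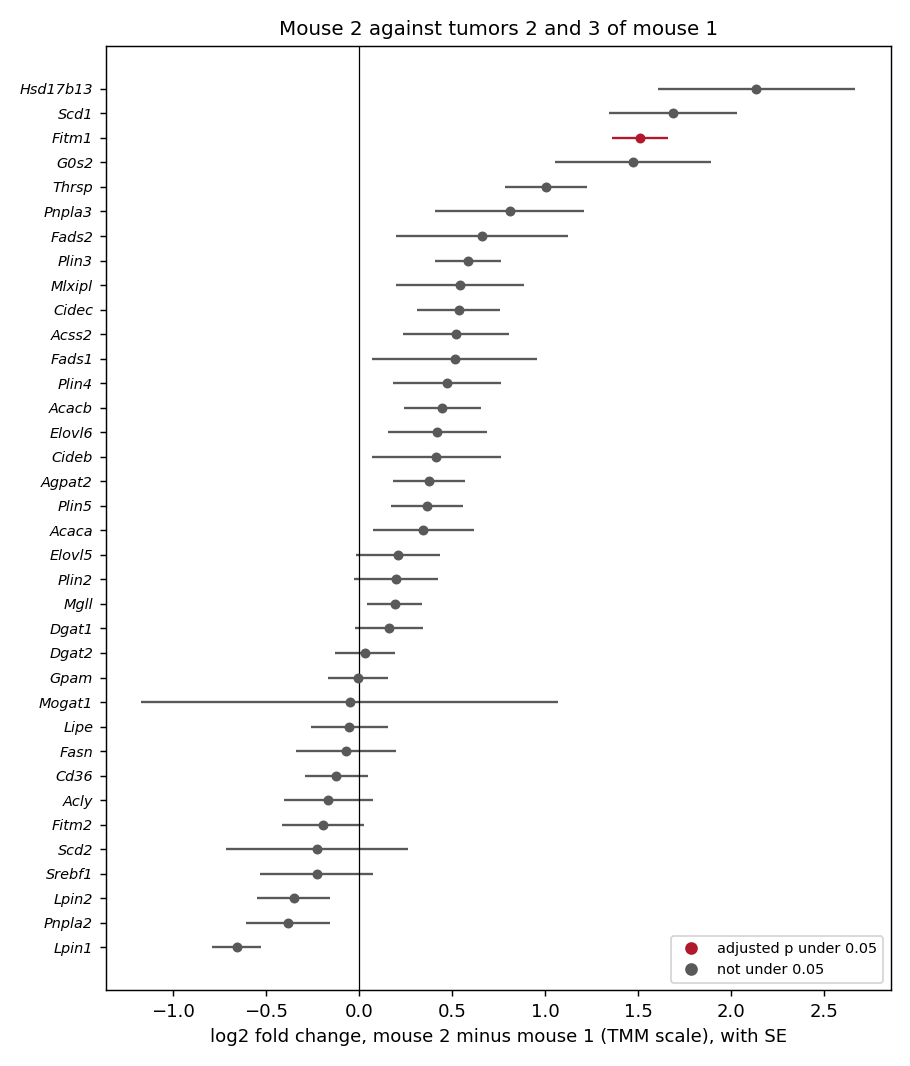
Log2 fold change of mouse 2 minus mouse 1 for 36 genes without tumor 1 of mouse 1, from edgeR on TMM-scaled counts (3 tumors against 2), with bars of 1 SE. *Fitm1*, in red, is the lone gene with an adjusted p under 0.05, at 1.51, while *Hsd17b13* at 2.14 has a wider bar.

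The call of *Fitm1* depended on single libraries. Its log2 fold change stayed between 1.40 and 1.61 when each of the 5 tumors was left out in turn. The edgeR adjusted p, however, became 0.418 and 0.339 without tumor 2 or 3 of mouse 1, and 0.0889 without tumor 1 of mouse 2. If tumors 2 and 3 of mouse 1 were counted as 1 sample, mouse 1 would hold a single sample, as in the first pair of these fits. With the tumor number as a block the adjusted p was 0.155. Exons of *Fitm1* overlap *Gm15932* on the opposite strand, as exons of 24 of the 37 genes overlap a gene on that strand, and whether the counting used strand is not stated in the sources.

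The other large differences did not pass edgeR. *Hsd17b13* was at 2.14 (SE 0.529), *Scd1* at 1.69 (SE 0.344), *G0s2* at 1.47 (SE 0.418), *Thrsp* at 1.00 (SE 0.221) and *Pnpla3* at 0.81 (SE 0.4005) on the log2 scale, mouse 2 minus mouse 1. *Fads2* was at 0.66 (SE 0.463) and *Lpin1* at -0.66 (SE 0.134), and *Lpin1* alone of these had a value below 0. Their edgeR adjusted p-values ran from 0.075 for *Scd1* and *Lpin1* to 0.481 for *Fads2*. At an unadjusted p under 0.05 there were 7 members of 36, against 20% of all genes. DESeq2 called 7 members, with *Fitm1*, *G0s2*, *Hsd17b13*, *Plin3*, *Scd1* and *Thrsp* higher and *Lpin1* lower in mouse 2, against 10.2% of all genes, and limma-voom called *Fitm1* alone.

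Over the 36 members the median log2 fold change was 0.35 on the TMM scale, against 0.01 over all genes tested. On it, 24 members had a value above 0, against 51.2% of all genes, and with library size alone 19 did, against 29.7%. Log2 fold changes on this TMM scale lay 0.52 above the log2 ratios of TPM at the median gene, so the TPM values given above place mouse 2 lower relative to mouse 1 than this scale does. Macrophage markers had a median log2 fold change of -0.59 in this comparison, endothelial markers -0.50 and stellate cell and fibroblast markers -0.74. T and NK cell markers had -0.59, adipocyte markers -0.90, cholangiocyte markers -1.02, neutrophil markers 1.43 and hepatocyte markers 0.07. The adipocyte and neutrophil medians rested on 2 tested genes each and the cholangiocyte median on 4, against 5 to 9 for the other lists. None of these marker genes was called (0 of 44 tested), and their part in the result was not tested.

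Of 66 tested genes in the 6 lists of partner genes, 1 was called higher and 0 lower by edgeR without tumor 1 of mouse 1. Of all genes, 0.419% were called higher and 0.837% lower. The gene called was *Gpat3*, a glycerol-3-phosphate acyltransferase of the endoplasmic reticulum. It had 12.3, 14.2 and 10.7 TPM in mouse 2, against 10.3 and 10.1 TPM in tumors 2 and 3 of mouse 1. As for *Fitm1*, mouse 1 entered with tumors 2 and 3 alone, which were close to each other. The median log2 fold change of a list ran from -0.03 for NADPH and citrate supply to 0.16 for other droplet, lipolysis and secretion genes, a list led by *Ces3a*, *Hsd17b11* and *Ces1d*. With all 6 tumors, 0 of these genes were called by edgeR, as 0% of all genes were.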

How the data were processed

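RNAseq of 6 liver tumors of 1 condition was used, 3 from mouse 2 and 3 from mouse 1, and no library was discarded. Per the labels, the libraries were made from poly A mRNA. The estimated counts deposited by the authors are read numbers assigned to each transcript, need not be whole and were not normalized. The TPM values deposited by the authors were scaled for transcript length and depth. The layout is that of Salmon, and the submitters' processing notes list GRCm38, BWA and Picard. The index release, not given in the sources used here, may differ from the annotation that gave the names. Totals ran from 19130532 to 27681766 estimated counts per tumor, and a count of 0 allows up to 3 counts, a limit that covers counting error only.

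Transcripts were matched by identifier, without version, to GENCODE vM39, which was used for names alone. The 114813 matched transcripts were summed over 35683 genes, and 1733 unmatched ones, holding 0.373% to 0.680% of the counts, were left out. Positions and promoters are those of RefSeq for GRCm38.

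Counts were rounded and tested with edgeR 4.0.16 (quasi-likelihood test, TMM scaling, filterByExpr, two-sided, Benjamini-Hochberg over all genes tested), with all 6 tumors and without tumor 1 of mouse 1. DESeq2 1.42.0 and limma-voom (limma 3.58.1) were alternatives, in R 4.3.3. The SE was derived from the fold change and its F value. The script was tested on simulated data. Dixon's ratio was taken on log2(TPM + 1) and set against 0.625, its critical value for 6 samples, in Python 3.11.15. The labels name separate tumors of 1 animal, so p-values measure only the spread between these samples. Tumor numbers did not pair the tumors, and the check stands in the closing section.

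The members, the marker and partner lists and the tests were chosen with earlier results of these data known. The rule for named genes gives a level for each of the 37 members, a fold change between the mice for members with an adjusted p under 0.05 and for the 8 with the largest absolute value without tumor 1 of mouse 1, and for each other list at most its 3 most abundant genes and those called. Protein sequences, exome and single-cell data were not analysed here. The marker Tf was not matched.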

Additional observations from a re-analysis of the deposited data

Results flagged for a closer look

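A single tumor stood apart from the other 5 by Dixon's ratio on log2(TPM + 1) in 21 of the 37 genes. Chance flags about 1 in 20 groups, and 38.8% of the 12518 expressed genes had such a tumor.

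In 19 genes tumor 1 of mouse 1 was the lowest. The ratios of the droplet genes were 0.926 for *Plin5*, 0.879 for *Plin3*, 0.862 for *Cideb*, 0.810 for *Cidec*, 0.797 for *Fitm1*, 0.785 for *Plin2* and 0.683 for *Plin4*. Those of the glycerolipid genes were 0.870 for *Agpat2*, 0.840 for *Dgat2* and 0.684 for *Lpin2*. *Mgll* had 0.840 and *Cd36* 0.784. The synthesis genes had 0.822 (*Acacb*), 0.801 (*Acss2*) and 0.753 (*Thrsp*), the desaturases and the elongase 0.724 (*Elovl5*), 0.675 (*Scd1*) and 0.629 (*Fads2*), and the factor *Mlxipl* 0.644. The levels of these genes in tumor 1 of mouse 1 are given in the report with those of the other 5 tumors.

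*Acly* had a ratio of 0.632 because tumor 1 of mouse 1 was the highest. *Cidea* had 0.896 because tumor 2 of mouse 2 was the highest, with 4.19 TPM against at most 0.188 TPM in the other tumors.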

How the results depend on the processing

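Between the mice with all 6 tumors, edgeR called 0 genes, DESeq2 202 and edgeR without single tumors 0 to 168 (168 without tumor 1 of mouse 1), with 0 to 1 members among them. The log2 fold change of *Lpin1* (-0.15) turned to 0.28 with limma-voom and 0.35 with the tumor number as a block, and ran from -0.66 to 0.24 when each tumor was left out. That of *Pnpla3* (0.02) turned to -0.65 with library size alone and ran from -0.27 to 0.81 when each tumor was left out. None of these passed the threshold, and the cause was not tested.

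Without tumor 1 of mouse 1, edgeR called 168 genes, DESeq2 1369, limma-voom 477, edgeR with no filter on low counts 460 and with a mean of at least 1 TPM 66. Leaving out single tumors gave 0 to 707 genes: 0 without tumor 2 of mouse 1 or tumor 1 of mouse 2, 2 without tumor 3 of mouse 1, 300 and 707 without tumors 2 and 3 of mouse 2. Members called were 1 in edgeR, 7 in DESeq2, 2 with no filter (*Fitm1* and *Scd1*) and 0 to 5 when each tumor was left out. Where 1 tumor of mouse 1 remained, it was assumed to vary like the tumors of mouse 2. Tumor numbers did not pair the tumors, with correlations of same-numbered deviations between -0.043 and 0.049, and the block called 0 genes and 0 members in either comparison. *Scd1* passed edgeR's test with no filter (adjusted p = 0.040), and without tumor 2 (0.0468) or 3 (0.0300) of mouse 2, against 0.075 in the full comparison. The other settings, DESeq2 size factors in edgeR, library size alone and no mitochondrial genes, called 151 to 165 genes and *Fitm1*. Log2 fold changes under TMM scaling were 0.51 higher than under library size alone when all 6 tumors were fitted, and 0.26 higher when tumor 1 of mouse 1 was left out.

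The count of members at least 2-fold below the other tumors in tumor 1 of mouse 1 was 22 under either pseudocount, a minimum mean of 5 TPM or protein-coding transcripts alone, 24 without mitochondrial genes, 17 at 4-fold and 28 on TMM-scaled counts. The count above was 3 with a pseudocount of 0.1 or protein-coding transcripts alone, 2 (*Acly* and *Scd2*) with a pseudocount of 1, a minimum mean of 5 TPM or no mitochondrial genes, 1 at 4-fold and 0 on TMM-scaled counts. Of all 12518 expressed genes, 2918 were below and 2769 above on TMM-scaled counts, and 1259 and 2386 at 4-fold. Tumor 3 of mouse 2 was highest of the 5 other tumors for 7 members by TPM and 16 on TMM-scaled counts, and lowest for 16 and 8. Low counts limit *Cidea*, *Fitm1*, *Plin4* and *Mogat1* in tumor 1 of mouse 1.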
